A study of Mus musculus with 12 samples.

Results

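The Wnt ligand genes (Wnt), their frizzled receptors (Fzd), the secreted frizzled-related proteins (Sfrp) and the dickkopf antagonists (Dkk) are described here in DNA methylation profiles of mouse hippocampus. The members were all genes in the peak lists whose name begins with Wnt, Fzd, Sfrp or Dkk followed by a digit, whatever the class of the peak. This gave 37 of 14146 gene names, namely 19 Wnt, 10 Fzd, 4 Sfrp and 4 Dkk genes, and 878 of their peaks. The protein name listed with each of the 878 peaks was that of a Wnt, frizzled, frizzled-related or dickkopf protein, and 1 peak was also assigned to another gene. The assay was MeDIP-Seq: sheared DNA is precipitated with an antibody to 5-methylcytosine, and the methylated fragments obtained are sequenced.

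Hippocampi were taken from male C57BL/6 mice (C57BL/6J in the study's methods) at postnatal day 70. The Ethanol group was exposed before birth, because its dams could drink 10% ethanol in water by choice through gestation. The Stress group was isolated from dam and littermates for 3 hours daily between postnatal days 2 and 14. The Ethanol + stress group had both treatments and the Control group neither. Each group had 2 enriched libraries from different animals and 1 input library from another animal. According to the study's methods ethanol stayed available for some days after birth, and pups of one litter were divided between separated and unseparated groups, so littermates could stand on both sides of a comparison. Each library was compared with the input of its own group when peaks were called, so a difference between groups and one between inputs cannot be told apart. Whole tissue was used, so a difference in cell composition and a difference in methylation within a cell type cannot be told apart either, and peak lists gave no marker by which the dissection could be checked.

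Wnt proteins are secreted, lipid-modified ligands that bind the cysteine-rich domain of frizzled receptors on the cell surface. With the coreceptors Lrp5 and Lrp6 this stabilises beta-catenin, which then acts with Tcf and Lef factors on target genes, while other Wnt signals act through planar polarity or calcium. Sfrp proteins carry a frizzled-like domain and bind Wnt ligands outside the cell, and Dkk1, Dkk2 and Dkk4 bind the coreceptors. In the hippocampus the pathway is known for its part in the growth of the embryonic hippocampus, adult neurogenesis in the dentate gyrus and synapse formation.

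A peak is a stretch in which a library had more reads than its input, so it is a call of enrichment and not a methylation level. The 8 libraries held between 22805 peaks (Ethanol library 2) and 51747 peaks (Stress library 2), and read totals were not used here, so depth is unknown. Peaks of any library that shared at least 1 bp were merged into 91177 regions, of which 277 held member peaks. Regions of each gene are numbered along the chromosome, and all positions are in build mm10. Fold enrichment, the ratio of a library to its local background as the peak caller gave it, describes each peak.

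Every one of the 37 genes had a peak in at least 1 library, and 20 had one in all 8. The genes differed widely in number of peaks, with a median of 14 over the 8 libraries together. Just 7 genes held 413 of the 878 peaks, each with 50 or more. They were the receptors Fzd1 with 65 peaks, Fzd8 with 58 and Fzd10 with 58, the ligands Wnt4 with 64 and Wnt5a with 53, and the inhibitors Sfrp2 with 64 and Sfrp1 with 51. At the other end 12 genes had 8 peaks or fewer. The lowest numbers, singled out after the values were seen, were those of Wnt1, a ligand of midbrain development, with 1 peak in Ethanol library 1, and Wnt7a, a ligand of synapse formation, with 1 peak in Ethanol + stress library 1. Peaks were assigned to the nearest gene, whatever the distance.

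**Figure D1:**
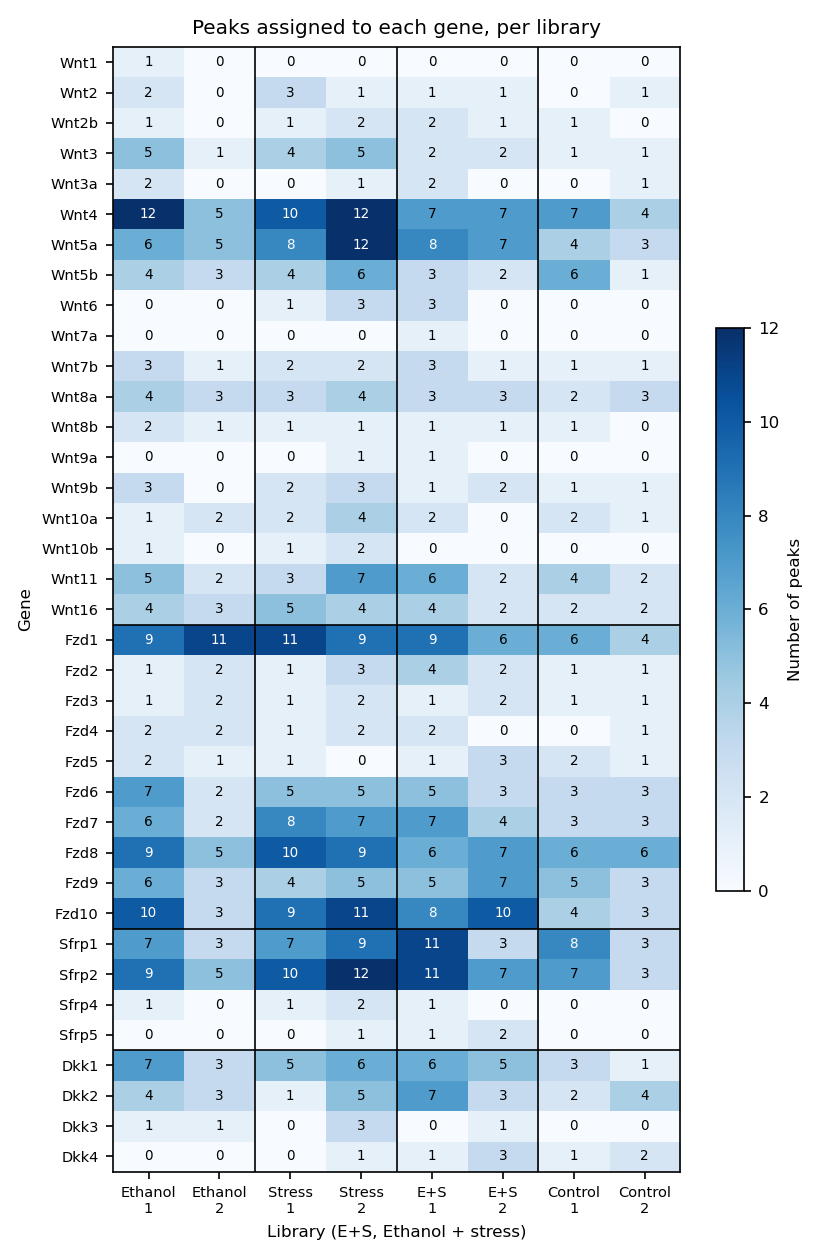
Number of peaks assigned to each of the 37 genes (rows) in each of the 8 enriched libraries (columns). Darker cells hold more peaks. Wnt4, Wnt5a, Fzd1, Fzd8, Fzd10, Sfrp1 and Sfrp2 carry the most peaks, up to 12 in a library, and Wnt1 and Wnt7a have 1 peak each.

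Most member peaks lay outside the genes. Of the 878 peaks, 77.8% were intergenic, 17.2% lay in a gene body and 5.01% in a promoter, meaning that the summit was at most 2000 bp away from a start of transcription. Over all peaks of the 8 libraries the shares were 71.5%, 25.7% and 2.80%. The families differed from each other, since 90.9% of Fzd peaks were intergenic and 0.590% in promoters, against 65.5% and 11.3% of Wnt peaks. For 7 of the 10 Fzd genes, Fzd1, Fzd8, Fzd9 and Fzd10 among them, every peak was intergenic. The intergenic peaks of members had a median distance of 54491 bp from the start site, compared with 71076 bp over all genes. Beyond 200 kb lay 24.03% of intergenic Fzd peaks but 2.73% of intergenic Wnt peaks, against 24.1% over all genes. These shares pool libraries and are given as a description.

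Promoter peaks were found at 9 of the 37 genes (24.3%), where 16.6% of all gene names had one. They were 7 ligands (Wnt3, Wnt5a, Wnt5b, Wnt8a, Wnt9b, Wnt10a and Wnt11), the receptor Fzd6 and the antagonist Dkk1, and none of the 4 Sfrp genes. The start site itself held no member peak. None of the 44 promoter summits of members lay within 500 bp of the start, against 21.1% of the 8294 promoter summits of all genes. The nearest was at 872 bp, and 6 (13.6%) lay within 1000 bp, against 44.1% over all genes. Downstream of the start lay 35 of the 44 (79.5%), compared with 57.5% over all genes. These shares pool libraries, so a site was counted again for every library with a peak there. Wnt8a alone gave 8 of the 44 summits, and the 6 within 1000 bp were all of Wnt10a.

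The sequence around the start sites of these genes is rich in CpG, the dinucleotide at which mammalian DNA is methylated. In the 500 bp around 41 start sites of the members there were on average 8.98 CpG per 100 bp, against 5.74 around 15360 start sites of all genes in the lists. The values ranged from 2 CpG per 100 bp at Wnt8a to 18 at Wnt9a. Wnt8a, an early embryonic ligand, combined the lowest density with a promoter peak in every library. Wnt4 and Fzd9, at 15.6 and 15.4, had no promoter peak in any library. Other genes went the other way. Dkk4, Wnt16 and Wnt8b, at 2.4, 2.6 and 2.6, had no promoter peak either. Fzd6, at 13 and 13.4 for its listed start sites, and Wnt9b, at 10.6, did have promoter peaks. A relation between density and promoter peaks was not tested.

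**Figure D2:**
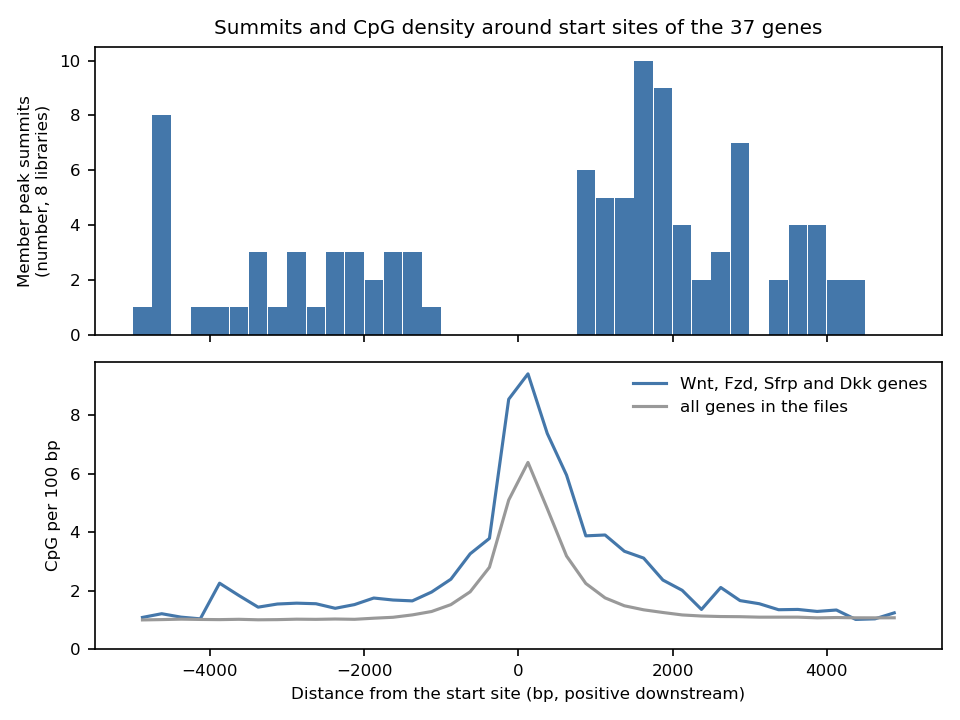
Upper panel: number of member peak summits in bins of 250 bp by distance from the start site of their gene, over the 8 libraries. Lower panel: mean CpG per 100 bp in the same bins around 41 start sites of the members (blue) and 15360 start sites of all genes (grey). The CpG density is highest at the start site, where no member summit falls, and the nearest summit is 872 bp away.

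At their own summits the member regions had a CpG density slightly below that of all regions, with overlapping quartiles. In the 300 bases around the strongest summit the median was 1 CpG per 100 bp over the 277 member regions and 1.33 over all regions with sequence. The lower quartiles were 0.333 and 0.667, and the upper quartiles 2.33 and 3. Of the 277 regions, 221 lay outside the transcripts of their gene in the GENCODE annotation, 42 in an intron, 11 in a coding exon, 2 in a UTR and 1 in another exon. Of the 220 intergenic regions, 58 lay inside some other gene, 36 of them in a protein-coding one.

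A peak in all 8 libraries was found at 19 member regions (6.86%), against 9.76% of all regions, and 96 (34.7%) were seen in 1 library, against 38.7%. The 19 belonged to 13 genes, with 10 regions at Wnt genes, 8 at Fzd genes, 1 at Sfrp1 and none at a Dkk gene. Of these regions 15 were intergenic. In 15 of the 19, the window of 300 bases around the summit was mostly masked as repeats in the reference (78.9%), against 72.8% of all regions with a peak in all 8 libraries. Over all 277 member regions the masked share was 46.2%, compared with 48.4% over all regions. To measure repetition, each 30-base word of a window was counted in the whole genome on both strands. The median word occurred at least 10 times in 27 of the 277 windows and in 5 of the 19.

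Examples in coding exons and in repeats are shown by the 300 bases around the strongest summit, on the plus strand of mm10, with every CpG in capitals. Wnt4 region 17 and Wnt5a region 8 are single-copy coding exons, while Wnt16 region 2 and Fzd3 region 1 hold the strongest peaks of the ligands and of the receptors.
Wnt4 region 17, chr4:137296297-137296596: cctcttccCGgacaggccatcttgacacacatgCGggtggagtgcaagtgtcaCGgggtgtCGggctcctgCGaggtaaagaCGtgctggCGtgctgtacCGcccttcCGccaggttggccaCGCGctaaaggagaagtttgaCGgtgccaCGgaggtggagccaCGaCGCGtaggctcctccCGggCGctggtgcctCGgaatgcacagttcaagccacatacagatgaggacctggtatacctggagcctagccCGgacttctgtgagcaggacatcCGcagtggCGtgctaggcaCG
Wnt5a region 8, chr14:28518329-28518628: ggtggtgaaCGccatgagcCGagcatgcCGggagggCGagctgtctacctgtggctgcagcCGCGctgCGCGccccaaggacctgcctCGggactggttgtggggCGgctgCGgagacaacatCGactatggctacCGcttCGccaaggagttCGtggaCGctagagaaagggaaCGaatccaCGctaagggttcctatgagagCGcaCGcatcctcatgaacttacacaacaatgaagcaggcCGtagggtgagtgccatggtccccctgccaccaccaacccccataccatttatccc
Wnt16 region 2, chr6:22173899-22174198: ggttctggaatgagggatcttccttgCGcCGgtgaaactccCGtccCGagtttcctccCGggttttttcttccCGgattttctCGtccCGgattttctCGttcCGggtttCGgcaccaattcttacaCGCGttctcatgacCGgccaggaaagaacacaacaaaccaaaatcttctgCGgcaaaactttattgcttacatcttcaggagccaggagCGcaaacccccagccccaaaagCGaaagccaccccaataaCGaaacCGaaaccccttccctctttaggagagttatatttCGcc
Fzd3 region 1, chr14:65183129-65183428: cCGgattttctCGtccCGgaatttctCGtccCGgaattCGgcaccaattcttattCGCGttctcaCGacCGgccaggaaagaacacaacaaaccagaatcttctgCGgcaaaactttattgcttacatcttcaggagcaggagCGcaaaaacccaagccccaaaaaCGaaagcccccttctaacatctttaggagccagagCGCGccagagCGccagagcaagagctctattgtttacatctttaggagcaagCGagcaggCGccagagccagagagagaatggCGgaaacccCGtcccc
Wnt4 region 17 had 23 CpG and Wnt5a region 8 had 21, and the median word of each occurred 1 time in the genome. Wnt16 region 2 and Fzd3 region 1 had 20 CpG each, and their median words occurred 77 and 30 times. The windows of these last regions shared 13 words of 30 bases with each other, although they lie at unrelated genes on different chromosomes. A read from such a word can be placed at more than 1 site of the genome, and how the aligner handled such reads is not given in the sources used here. The part of this in the peak values was not tested.

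Wnt4, a ligand of kidney and ovary development, had its coding-exon region 18813 bp downstream of the start site (chr4:137296148-137296872). The folds there were 16.5 and 7.24 in Ethanol, 14.9 and 13.2 in Stress, 12.8 and 10.95 in Ethanol + stress, and 8.59 and 10.3 in Control libraries. Stress and Ethanol + stress libraries all stood above both Control libraries, and Ethanol libraries stood on either side of them. Divided by the median fold of each library over all 8901 regions with a peak in every library, the Stress values were 1.24 and 0.857 and the Control values 0.806 and 0.977, so that these groups overlapped. Wnt5a, the best known ligand of signals that do not use beta-catenin, had a coding-exon region 7075 bp downstream of the later of its listed start sites (chr14:28516624-28518929). Its folds were 24.4 and 9.47 in Ethanol, 14.7 and 24.7 in Stress, 15.1 and 20.8 in Ethanol + stress, and 16.1 and 20.0 in Control libraries, so every treated group overlapped with Control.

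The highest fold of any member peak was at Wnt16 region 2 (chr6:22173533-22174658), 114177 bp upstream of Wnt16, a ligand known for its role in cortical bone, and inside an intron of Cped1. The folds were 24.02 and 15.5 in Ethanol, 25.1 and 35.7 in Stress, 21.3 and 24.97 in Ethanol + stress, and 8.86 and 9.29 in Control libraries. Each of the 6 treated libraries stood above both Control libraries. After the same division by the library median the values were 1.66 and 1.78 in Ethanol, 2.097 and 2.32 in Stress, 1.68 and 2.24 in Ethanol + stress, and 0.832 and 0.877 in Control libraries, with the same order. The Control libraries share 1 input and serve in all 3 comparisons. The window of Wnt16 region 2 was 100% masked as repeats, and its median word occurred 77 times in the genome. The capitals in the printed sequence mark CpG and not masking.

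Fzd3, a receptor needed for the growth of long axon tracts, had its region 79184 bp downstream of the start site, past the gene's end (chr14:65182720-65183871). The folds were 31.5 and 17.4 in Ethanol, 21.1 and 22.2 in Stress, 12.03 and 9.12 in Ethanol + stress, and 29.1 and 18.5 in Control libraries. Both Ethanol + stress libraries stood below both Control libraries, while Ethanol and Stress libraries overlapped with Control. After division by the library median the Ethanol + stress values were 0.948 and 0.817, against 2.73 and 1.75 in Control libraries.

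Fzd9 and Wnt4 had further shared regions at which all 6 treated libraries exceeded both Control libraries. The share of all shared regions with this pattern was not computed. The regions with it, here and at Wnt16 above, therefore have no background beside them. At Fzd9 region 1 (chr5:135259646-135260860), 9077 bp upstream of a receptor gene expressed in the hippocampus, the folds were 26.1 and 13.2 in Ethanol, 17.9 and 27.2 in Stress, 20.0 and 19.0 in Ethanol + stress, and 13.1 and 12.6 in Control libraries. The lower Ethanol value was close to the higher Control value. At Wnt4 region 4 (chr4:137181633-137182503), 95598 bp upstream, the folds were 14.2 and 9.66 in Ethanol, 15.6 and 17.5 in Stress, 11.2 and 12.8 in Ethanol + stress, and 7.31 and 8.19 in Control libraries. Both regions kept this order after division by the library median. A region 436536 bp upstream of Fzd8, region 4, had it before the division but not after it in Ethanol + stress. Wnt16 region 1 had it only after the division, with 0.592 to 0.898 in treated and 0.471 and 0.536 in Control libraries. Fzd1 region 2 then had the reverse order. Its divided values were 0.498 to 0.890 in treated libraries and 1.35 and 0.913 in Control libraries. Shares of all shared regions with either order after the division were not computed.

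Both Stress libraries were above both Control libraries at 9 of the 19 regions and below at 1, where 47.6% and 6.91% of all 8901 shared regions did so. Both Ethanol + stress libraries were above at 10 and below at 1 (33% and 13.5% of all shared regions). Both Ethanol libraries were above at 4 and below at 1 (15.7% and 8.94%). With 2 against 2 libraries the smallest two-sided p of an exact permutation test is 0.333, and no model over the 4 groups was fitted to the folds, so these orders are a description. After division by the library median the counts became 6 above and 2 below in Ethanol, 5 and 5 in Stress, and 9 and 3 in Ethanol + stress, so higher and lower regions were equally many in Stress. Over all 8901 shared regions, after the same division, 20.6% were above and 20.6% below in Ethanol, 25.6% and 23.5% in Stress, and 21.9% and 23.4% in Ethanol + stress.

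**Figure D3:**
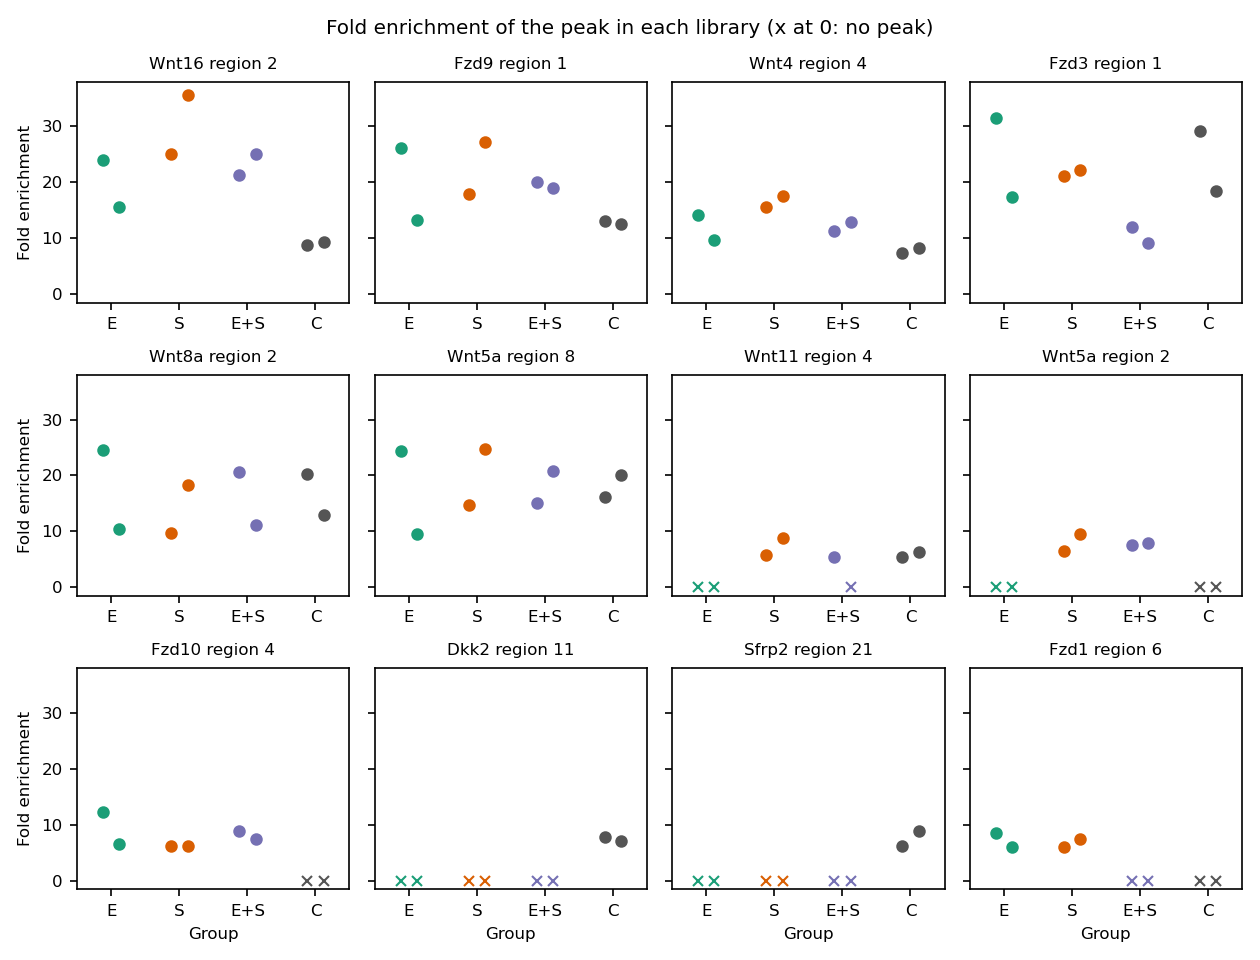
Fold enrichment (ratio to local background) of the peak at 12 regions, 1 point per library, for Ethanol (E), Stress (S), Ethanol + stress (E+S) and Control (C). A cross at 0 stands for no peak in that library, not for a measured value of 0. At Wnt16 region 2 the treated libraries lie between 15.5 and 35.7 and the Control libraries at 8.86 and 9.29.

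The other shared regions lay at Fzd1, Fzd6, Fzd7, Fzd8, Sfrp1, Wnt3, Wnt5b, Wnt8a and again Wnt4 and Wnt16, with median folds between 7.49 (Fzd6 region 1) and 15.6 (Wnt8a region 2). Fzd7, a receptor of stem cell compartments, had regions 75652 and 74293 bp upstream, and Fzd1 region 2 lay 260616 bp downstream of its start site. Wnt5b region 5 (chr6:119453508-119454468) was intergenic in the lists but lay in an intron of a longer Wnt5b transcript in the annotation, with a median fold of 14.7. Sfrp1, an inhibitor that binds Wnt ligands, had region 3, with folds between 7.44 and 15.0.

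Among the promoters, that of Wnt8a was the one with a peak in all 8 libraries. Its summits lay between 1461 and 1548 bp downstream of the start site, in an intron. The folds were 24.6 and 10.5 in Ethanol, 9.70 and 18.4 in Stress, 20.7 and 11.2 in Ethanol + stress, and 20.3 and 12.9 in Control libraries. The groups overlapped, and in each the library with more peaks had the higher fold.

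Wnt10a and Wnt11 also had promoter peaks in most libraries. The window of Wnt11 is printed because its summit lies in sequence with few CpG, next to a start site with 9.6 CpG per 100 bp (mm10, plus strand, CpG in capitals).
Wnt11 region 4, chr7:98839804-98840103: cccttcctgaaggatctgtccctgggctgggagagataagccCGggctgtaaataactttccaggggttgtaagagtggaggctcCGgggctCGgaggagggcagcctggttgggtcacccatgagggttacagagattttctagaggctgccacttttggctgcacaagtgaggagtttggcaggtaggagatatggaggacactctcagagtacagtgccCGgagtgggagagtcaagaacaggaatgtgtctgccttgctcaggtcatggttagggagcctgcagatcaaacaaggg
The window held 4 CpG and lies in an intron, in the first part of the gene.

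Wnt10a, a ligand of tooth and hair development, had a promoter peak in 7 libraries. The folds were 7.29 and 11.3 in Ethanol, 5.96 and 5.23 in Stress, 6.83 and no peak in Ethanol + stress, and 7.31 and 10.3 in Control libraries. Wnt11, a ligand of kidney branching and cell movement, had one in 5 libraries (chr7:98839643-98840622). No peak was called in either Ethanol library, the folds were 5.72 and 8.90 in Stress, 5.39 and no peak in Ethanol + stress, and 5.52 and 6.32 in Control libraries. These Control folds are near the low end of member peaks, whose lower quartile was 6.34.

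Wnt9b, a ligand of kidney tubule formation, had promoter peaks in 6 libraries, each with a summit 1488 to 1757 bp downstream of the start. The folds at that site (chr11:103747756-103748670) were 8.996 and no peak in Ethanol, 13.8 and 11.6 in Stress, 4.94 and 7.03 in Ethanol + stress, and 6.83 and no peak in Control libraries. Both Stress libraries had another promoter peak upstream of the start (chr11:103750958-103751521), with folds of 6.997 and 6.48, and no other library had one there. The gene was not called, since a Control library had a peak at the downstream site. Wnt5a had promoter peaks in 5 libraries, 1711 to 1814 bp upstream of the first of its listed start sites (chr14:28503166-28504114). The folds were 13.9 in Ethanol library 1, 9.49 in Stress library 2, 7.90 and 7.51 in Ethanol + stress, and 4.40 in Control library 2. Ethanol + stress library 2 had another promoter peak 1024 bp downstream of a later listed start (chr14:28512114-28512593), with a fold of 4.76.

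The remaining promoter peaks lay at the edge of the 2000 bp window or in few libraries. At Dkk1, an antagonist needed for head formation, 4 libraries had a summit between 1849 and 1907 bp downstream, in a coding exon, with folds of 6.45 and 5.54 in Ethanol, 12.02 in Stress library 2 and 9.35 in Ethanol + stress library 2. The merged region (chr19:30546505-30548347) had a peak in 7 libraries, Control library 1 among them with a fold of 8.15, but there the summit lay past the window. At Wnt3, a ligand of gastrulation, the region (chr11:103775736-103777260) had a peak in all 8 libraries, with folds between 7.12 and 12.8, and the summit fell inside the window in 3. Fzd6, a planar polarity receptor, had a promoter peak in Ethanol library 1 and Stress library 1, and Wnt5b in Control library 1.

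The first comparison asked how promoters differed from Control after each treatment. The call gained required a promoter peak in each library of the treatment and in no Control library, and lost was the reverse. In Ethanol 1 of the 37 genes was gained, Dkk1, and 1 lost, Wnt11, while 0.431% and 0.198% of all genes were gained and lost. The Dkk1 call rested on the summit position just described, and its region was not gained. The Wnt11 call was also a loss of the region. With the strongest 22805 peaks of every library, or with a promoter window of 1000 bp, 0 were gained and 0 lost in Ethanol, and the loss of the Wnt11 region was not called with the strongest peaks either. In Stress no member was gained or lost, against 1.5% and 0.177% of all genes. In Ethanol + stress no member was gained or lost either, against 0.954% and 0.113%. A permutation of 2 against 2 libraries cannot give a p below 0.333, so the calls carry no p. With 1 library left out the promoter counts changed by at most 2 genes. The 2 lost in Ethanol + stress without its library 1 and the 2 gained in Ethanol without its library 2 were the highest of those treatments. Shares of all genes with a library left out were not computed.

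The second comparison used the merged regions, which include the gene bodies and the intergenic peaks. In Ethanol 13 of 184 member regions with a peak in either group were gained (7.07%) and 3 lost (1.63%), where 4.31% and 1.42% of all regions were. In Stress 30 of 213 were gained (14.1%) and 4 lost (1.88%), where 11.8% and 1.12% of all regions were. In Ethanol + stress 13 of 186 were gained (6.99%) and 5 lost (2.69%), where 8.25% and 0.976% of all regions were. The treated libraries other than Ethanol library 2 had more peaks than either Control library, and the part of this in the gained counts was not tested. When the strongest 22805 peaks of every library were used, 4, 7 and 6 member regions were gained in Ethanol, Stress and Ethanol + stress. Lost were 5, 9 and 9, more than were gained in each treatment. The shares of all regions gained and lost were not computed at this setting, so these counts have no background beside them. Keeping the same number takes more peaks from treated than from Control libraries, Ethanol library 2 excepted. Leaving out 1 library eased the rule and raised every count: gained regions reached 67 without Ethanol library 2, 84 without Stress library 1 and 60 without Ethanol + stress library 2. For these counts the shares of all regions were not computed either.

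**Figure D4:**
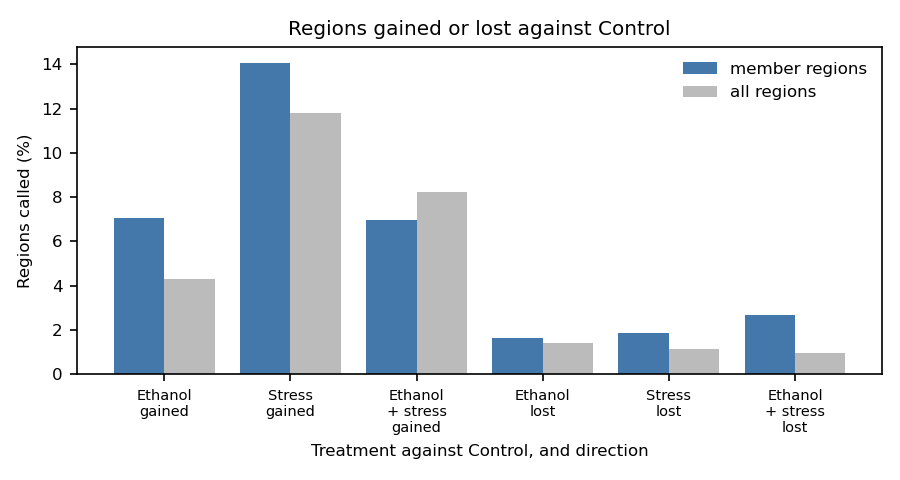
Percent of regions with a peak in either group that were gained or lost against Control, for each treatment, in member regions (blue) and all merged regions (grey). The gained share is largest in Stress for both, at 14.1% of member regions and 11.8% of all regions.

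The 13 regions gained in Ethanol lay at 9 genes, with 7 at Fzd genes, 3 at Wnt genes, 3 at Dkk genes and none at an Sfrp gene. Fzd1 had 3 of them (regions 6, 9 and 16), Fzd8 regions 1 and 3, Fzd10 region 4 and Fzd4 region 4. The ligand regions were Wnt4 regions 2 and 6 and Wnt16 region 4, and the antagonist regions lay at Dkk1, Dkk2 and Dkk3. The folds in Ethanol libraries ran from 5.90 to 12.3. Lost were Wnt11 region 4 in the promoter, Dkk2 region 11 and Sfrp2 region 21.

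The 30 regions gained in Stress lay at 17 genes, with 13 at Wnt genes, 10 at Fzd genes, 6 at Sfrp genes and 1 at Dkk2. By class 24 were intergenic, 5 in gene bodies and 1 in a promoter, the upstream Wnt9b peak. Fzd10 alone had 5 (regions 3, 4, 5, 9 and 13), spread over both sides of the gene, and its Stress folds reached 14.1 at region 9, 3879 bp downstream. Sfrp2, a secreted inhibitor, had 3 (regions 8, 11 and 17), of which region 17 lay in its intron. Wnt5a also had 3 (regions 2, 6 and 16). Gene-body gains were further found in introns of Wnt3, Wnt11 and Sfrp1 and in a coding exon of Wnt16. Wnt2, Wnt4, Wnt6, Wnt10b, Fzd1, Fzd7, Fzd8 and Sfrp4 were the remaining genes. Lost were Fzd8 region 7, Fzd9 region 3, Dkk2 region 11 and Sfrp2 region 21, with Control folds between 6.16 and 9.40.

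The 13 regions gained in Ethanol + stress lay at 11 genes, with 6 at Fzd genes, 4 at Wnt genes, 2 at Sfrp genes and 1 at Dkk2. Fzd6 region 7, in the coding sequence of the receptor, was the one in a gene body, with folds of 7.90 and 5.94. The others were at Fzd1, Fzd2, Fzd9, Fzd10 (regions 4 and 13), Wnt3, Wnt4 (regions 2 and 6), Wnt5a region 2, Sfrp2 and Sfrp5. Lost were Fzd8 regions 2 and 7, Wnt11 region 1, Dkk2 region 11 and Sfrp2 region 21. In all, 52 regions at 24 of the 37 genes were called in some comparison with Control, and 13 genes had none, Wnt8a, Wnt10a and Fzd3 among them. The share of all regions or genes called in some comparison was not computed, so these counts have no background beside them.

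Regions that had the same call in every treatment are shown by sequence, because their Control libraries stood apart from all treated libraries (mm10, plus strand, CpG in capitals).
Fzd10 region 4, chr5:128534418-128534717: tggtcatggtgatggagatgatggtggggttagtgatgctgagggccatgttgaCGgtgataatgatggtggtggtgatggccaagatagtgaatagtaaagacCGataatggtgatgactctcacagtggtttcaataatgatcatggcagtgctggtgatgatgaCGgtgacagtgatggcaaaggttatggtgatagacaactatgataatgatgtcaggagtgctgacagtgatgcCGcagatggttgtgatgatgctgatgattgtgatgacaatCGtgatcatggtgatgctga
Dkk2 region 11, chr3:132125026-132125325: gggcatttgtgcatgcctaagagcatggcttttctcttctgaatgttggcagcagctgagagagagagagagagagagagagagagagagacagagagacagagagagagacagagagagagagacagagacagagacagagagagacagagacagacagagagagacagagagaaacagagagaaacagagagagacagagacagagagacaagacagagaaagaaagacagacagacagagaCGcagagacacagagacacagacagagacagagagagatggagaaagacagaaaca
Sfrp2 region 21, chr3:83789273-83789572: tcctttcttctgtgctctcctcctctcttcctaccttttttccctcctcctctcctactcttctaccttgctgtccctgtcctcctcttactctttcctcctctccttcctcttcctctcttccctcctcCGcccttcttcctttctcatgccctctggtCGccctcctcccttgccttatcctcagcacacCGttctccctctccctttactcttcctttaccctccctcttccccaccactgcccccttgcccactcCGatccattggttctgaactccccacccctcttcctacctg
The Fzd10 window held 5 CpG, the Dkk2 window 1 and the Sfrp2 window 4. Much of the Dkk2 window is a run of A and G, and 83.3% of it was masked, against 55.3% for Sfrp2 and 9.33% for Fzd10.

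At Fzd10 region 4 (chr5:128534272-128534885), 66537 bp upstream of the receptor gene, the folds were 12.3 and 6.61 in Ethanol, 6.20 and 6.18 in Stress, and 8.86 and 7.51 in Ethanol + stress libraries, and neither Control library had a peak. At Dkk2 region 11 (chr3:132124949-132125531), in an intron of an antagonist that binds Lrp coreceptors, no treated library had a peak, and the Control folds were 7.73 and 7.004. At Sfrp2 region 21 (chr3:83789039-83789792), 23103 bp downstream of the start, no treated library had a peak, and the Control folds were 6.16 and 8.85. The 3 comparisons share the same Control libraries, so these calls are not separate observations. What share of all regions had the same call in every treatment was not computed, so these regions have no background beside them. The calls of Dkk2 and Sfrp2 held in each comparison with the strongest 22805 peaks of every library, and that of Fzd10 held in Ethanol and Ethanol + stress but not in Stress.

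The third comparison set the 4 libraries of separated mice (Stress and Ethanol + stress) against the 4 of unseparated mice (Ethanol and Control). A region of Wnt5a was the single one of the 277 member regions that had a peak in all separated and no unseparated libraries, and none showed the opposite. Its window is printed to show what kind of sequence it is (mm10, plus strand, CpG in capitals).
Wnt5a region 2, chr14:28474350-28474649: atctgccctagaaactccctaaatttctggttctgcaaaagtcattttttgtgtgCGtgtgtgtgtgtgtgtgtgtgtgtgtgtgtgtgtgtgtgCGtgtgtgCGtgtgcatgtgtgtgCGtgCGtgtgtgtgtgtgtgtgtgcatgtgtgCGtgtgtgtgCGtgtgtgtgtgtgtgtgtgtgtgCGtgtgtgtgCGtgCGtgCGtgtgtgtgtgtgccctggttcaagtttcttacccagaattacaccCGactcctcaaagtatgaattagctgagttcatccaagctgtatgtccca
The window held 12 CpG, most of them in a run of alternating T and G, and 60% of it was masked. The region (chr14:28474219-28474814) lay 30972 bp upstream of the nearest Wnt5a start site, in an intron of Erc2, a gene for a protein of the presynaptic active zone.

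The folds at Wnt5a region 2 were 6.54 and 9.49 in Stress and 7.64 and 7.97 in Ethanol + stress libraries, and no peak was called in Ethanol or Control libraries. A two-sided Fisher's exact test over libraries gave p = 0.0286, the smallest that 4 against 4 libraries allow. At this unadjusted p, 0.406% of all regions were higher and 0.00877% lower in separated mice. After Benjamini-Hochberg adjustment over 91177 regions the adjusted p was 1, and 0 regions passed. The libraries of separated mice included 3 of the 4 with most peaks, and with the strongest 22805 peaks of every library the count of such member regions was 0. The count was 4 without Ethanol library 1, 2 without Ethanol + stress library 1 and 5 without Ethanol + stress library 2. In the opposite direction it was 1 without Ethanol library 2 or Ethanol + stress library 2. Shares of all regions with a library left out were not computed, so these counts have no background beside them.

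The fourth comparison set the 4 ethanol-exposed libraries (Ethanol and Ethanol + stress) against the 4 unexposed ones (Stress and Control). None of the 277 member regions reached an unadjusted Fisher's exact p of 0.0286 in either direction, where 0.0834% of all regions were higher and 0.0417% lower. After adjustment 0 of 91177 regions passed. Without Stress library 2 there were 2 member regions higher, and 1 was lower without Control library 2, Ethanol library 1 or Ethanol + stress library 1. Here too the shares of all regions with a library left out were not computed.

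At some regions the peak calls of separated and unseparated mice differed in opposite directions with and without ethanol. Fzd1 region 6 (chr5:4515464-4516300), 242339 bp downstream of the receptor's start site, had folds of 8.57 and 6.09 in Ethanol and 6.08 and 7.38 in Stress libraries, and no peak in Ethanol + stress or Control libraries. Wnt16 region 4 (chr6:22216607-22217952), 71128 bp upstream, had folds of 7.29 and 6.25 in Ethanol and 6.08 and 8.22 in Stress libraries, and no peak in Ethanol + stress or Control libraries. These were 2 of the 277 member regions, where 0.269% of all regions had such a pattern in either direction, and the difference was not tested. With the strongest 22805 peaks of every library, Wnt16 region 4 was no longer gained in Ethanol or in Stress, and Fzd1 region 6 was no longer gained in Stress, so the pattern held at neither. The median 30-base word of Fzd1 region 6 occurred 878 times in the genome.

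There were 106 ± 45.3 member peaks in Ethanol, 143.5 ± 26.2 in Stress, 117.5 ± 26.2 in Ethanol + stress and 72 ± 16.97 in Control libraries (SD, n = 2 each). As a share of all peaks this was 0.312 ± 0.0171% in Ethanol, 0.312 ± 0.00143% in Stress, 0.294 ± 0.0294% in Ethanol + stress and 0.277 ± 0.0381% in Control libraries. Single libraries held 138 and 74 member peaks in Ethanol, 125 and 162 in Stress, 136 and 99 in Ethanol + stress, and 84 and 60 in Control. All 4 libraries of separated mice exceeded both Control libraries, and Ethanol library 2 lay between the Control libraries. With the strongest 22805 peaks of each library there were 62 and 74 in Ethanol, 59 and 58 in Stress, 61 and 58 in Ethanol + stress, and 65 and 57 in Control, and every group then overlapped with Control.

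**Figure D5:**
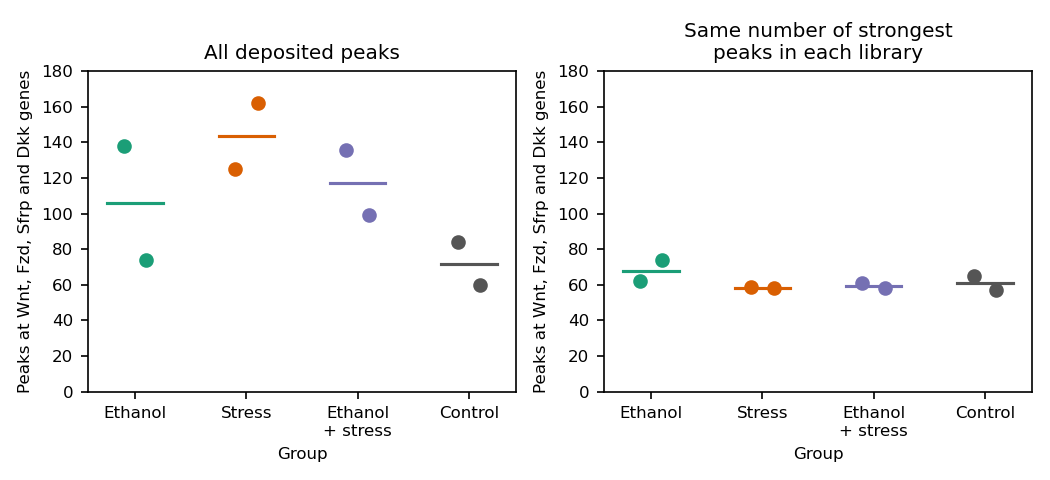
Number of peaks at the 37 genes in each library (points) with the mean of each group (line), for all deposited peaks (left) and for the strongest 22805 peaks of each library (right). On the left Stress libraries (125 and 162) lie above Control libraries (84 and 60), and on the right all groups overlap, between 57 and 74.

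By family, Wnt genes had 56 and 26 peaks in Ethanol, 50 and 70 in Stress, 50 and 31 in Ethanol + stress, and 32 and 21 in Control libraries. Fzd genes had 53 and 33 in Ethanol, 51 and 53 in Stress, 48 and 44 in Ethanol + stress, and 31 and 26 in Control libraries. Sfrp genes had 17 and 8 in Ethanol, 18 and 24 in Stress, 24 and 12 in Ethanol + stress, and 15 and 6 in Control libraries. Dkk genes had 12 and 7 in Ethanol, 6 and 15 in Stress, 14 and 12 in Ethanol + stress, and 6 and 7 in Control libraries. Promoter peaks numbered 7 and 3 in Ethanol, 6 and 7 in Stress, 6 and 5 in Ethanol + stress, and 5 and 5 in Control libraries. These counts were not adjusted for the total of each library, so their order between groups is not one of shares. The 53 Fzd peaks of Stress library 2 were among 51747 peaks, and the 31 of Control library 1 among 27655.

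Other genes of the pathway came from a list of 67 coreceptors, secreted modulators, cytoplasmic and nuclear components, of which 54 were in the peak lists. A promoter peak was found at 9 of the 54 (16.7%), close to the 16.6% of all gene names. The nuclear factors Tcf7l2 and Lef1 had one in all 8 libraries, Tcf7l1 in 7 and Nkd1, an inhibitor of Dishevelled, in 6. Prickle2, a planar polarity protein of neurons, was gained in Stress and in Ethanol + stress, and Celsr2, a planar polarity cadherin, in Stress, while none was gained in Ethanol and none was lost in any treatment. These were 3.7% of the 54 genes in Stress and 1.85% in Ethanol + stress, where 1.5% and 0.954% of all genes were gained. Of the regions of this list 20 of 444 were gained and 4 lost in Ethanol, 67 of 533 gained and 6 lost in Stress, and 40 of 452 gained and 3 lost in Ethanol + stress, which is 4.5%, 12.6% and 8.85% gained and 0.901%, 1.13% and 0.664% lost. Over all regions 4.31%, 11.8% and 8.25% were gained and 1.42%, 1.12% and 0.976% lost in the same treatments. Lef1 and Vangl2 each had 1 region, of 661 in all, with a peak in all separated and no unseparated libraries, which is 0.303%, where 0.406% of all regions had this.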

How the data were processed

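Hippocampal DNA of 8 animals in 4 groups was profiled, with 2 enriched libraries a group. The submitters' notes name HISAT2 2.1.0 and build mm10. The authors called peaks with MACS, each library against the input of its group, and assigned each to the nearest gene. The deposited fold enrichment is a ratio to local background, and the deposited q-value column is on a −log10 scale. The deposited tag number at the summit was treated as a score. How reads with several matches were placed is not given in the sources used here.

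Peaks were merged, called and counted with Python 3.11.15, numpy 2.4.6, pandas 2.3.3 and scipy 1.17.1. Comparisons of 4 against 4 libraries used Fisher's exact test with Benjamini-Hochberg adjustment over all regions. The code of the call rules was run on simulated data with planted calls, which were set to meet the rule, so this gives no error rate of the calls. Libraries that share a number are not stated to be paired. Sequences and annotation came from the reference genome GRCm38, the same build. Nothing says that 2 libraries of a group came from different litters, and they share the input of their group. Fisher's exact test treats all libraries as independent, so its p-values leave these links out and measure no spread between animals.

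Members and gene lists were chosen with earlier results of these data known. Named were genes with a promoter peak, a called region or a region with a peak in all 8 libraries, and pathway genes with a called promoter or promoter peaks in most libraries. Other genes are named where their counts or CpG densities were extreme. The counts of repeated words, the fold order at shared regions and the division by library medians were added after the data were examined.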

Additional observations from a re-analysis of the deposited data

Results flagged for a closer look

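At Fzd1 region 6 a peak was called in 4 libraries, both Ethanol and both Stress ones, and in no Ethanol + stress or Control library. At Wnt16 region 4 a peak was likewise called in 4 libraries, both Ethanol and both Stress ones. In these calls the peak was absent with separation in ethanol-exposed mice and present with it in unexposed mice, and this difference was not tested. When every library was cut to its strongest 22805 peaks, the pattern held at neither region, since Wnt16 region 4 was then not gained in Ethanol or Stress, and Fzd1 region 6 not in Stress. Such a pattern, in either direction, was present at 0.269% of all merged regions.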

How the results depend on the processing

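With an equal number of peaks per library, promoters gained and lost were 0 and 0 in Ethanol, and 1 was lost in Stress, and 1 gained and 1 lost in Ethanol + stress. Regions gained and lost were then 4 and 5 in Ethanol, 7 and 9 in Stress, and 6 and 9 in Ethanol + stress, 0 regions were higher in separated mice, and 1 was higher in ethanol-exposed mice. The shares over all genes and all regions were not computed with an equal number of peaks. Member peaks averaged 58.5 in Stress and 59.5 in Ethanol + stress libraries. A promoter window of 1000 bp gave 0 gained and 0 lost in Ethanol, and one of 5000 bp gave 0 gained in Ethanol and 4 gained in Stress. Summit windows of 200 bp on either side gave 2 regions higher in separated and 1 higher in ethanol-exposed mice. A −log10 q of at least 10 moved no count by more than 1.5 times. For these promoter windows, summit windows and this q, the shares over all genes and all regions were not computed either. Fold divided by the library median gave 2 regions lower in Ethanol, 5 higher and 5 lower in Stress, and 3 lower in Ethanol + stress. The cause of these changes was not tested.

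Leaving out 1 library at a time, promoters gained ranged over 1 to 2 in Ethanol, 0 to 1 in Stress and 0 to 1 in Ethanol + stress, and promoters lost over 1 to 2, 0 to 1 and 0 to 2. Regions gained ranged over 16 to 67 in Ethanol (67 without Ethanol library 2), 38 to 84 in Stress (84 without Stress library 1) and 22 to 60 in Ethanol + stress (60 without Ethanol + stress library 2). Regions lost ranged over 4 to 17 in Ethanol, 7 to 13 in Stress and 7 to 16 in Ethanol + stress, each highest without Control library 2. Regions higher in separated mice ranged over 1 to 5 and lower over 0 to 1, and regions higher in ethanol-exposed mice over 0 to 2 and lower over 0 to 1. Such counts rise by construction, since fewer libraries must share a call. Shares over all genes and all regions with a library left out were not computed.

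With the replicate block, which pairs libraries of the same number, promoters gained and lost were 1 and 1 in Ethanol and 0 and 0 in Stress and in Ethanol + stress, and regions gained and lost were 13 and 3, 30 and 4, and 13 and 5. The rule gives identical calls by construction. The labels do not say that the numbers pair animals.

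Read depth is unknown, so a missing peak cannot be told apart from a shallow library, and peak calls give no methylation level.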
